A study of Mus musculus with 6 samples.

Results

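A set of 10 transcription factor genes that direct the conversion of preadipocytes into adipocytes was followed in 3T3-L1 cells with and without knockdown of Rbms1. The 10 genes, Pparg, Cebpa, Cebpb, Cebpd, Klf4, Klf15, Srebf1, Ebf1, Ebf2 and Rxra, were taken by name from a table of 45706 genes, and each name matched 1 row. 3T3-L1 is a fibroblast line from mouse embryos that accumulates lipid when it is given adipogenic hormones. RNA was sequenced on day 7 of differentiation from 3 scrambled control samples (genotype label WT) and 3 RBMS1 knockdown samples (RBMS1KD). Both groups were stably transduced by lentivirus with a short hairpin RNA, selected with puromycin and induced with IBMX, insulin, dexamethasone and rosiglitazone. Whether the samples of a group came from separate transductions, and whether clones were picked, is not given in the sources used here, and p-values measure the spread between these samples. The question for these genes was whether loss of RBMS1, an RNA-binding protein, changed the transcripts of the factors that drive adipogenesis.

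The factors act in a cascade. C/EBPβ and C/EBPδ, together with KLF4, appear soon after the inducing hormones and switch on PPARγ and C/EBPα, which sustain each other and turn on the genes of the mature fat cell. PPARγ binds DNA as a dimer with RXRα, SREBP1 drives lipid synthesis genes, KLF15 acts late in differentiation, and EBF1 and EBF2 belong to a family of early B-cell factors that mark and maintain the adipocyte lineage. Some agents of the induction mixture act on these factors directly, since rosiglitazone is a ligand of PPARγ, and IBMX and dexamethasone are known inducers of Cebpb and Cebpd.

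The sequences before the start sites of 3 of these genes are given first, because Cebpa and Ebf1 were the members whose knockdown and control samples did not overlap, and because the count of Pparg adds up transcripts from several starts. RefSeq promoter entries on GRCm38.p6 were found for 8 of the 10 genes, with 14 windows of 250 bases before a start. Each window was searched on both strands for the letters of 7 motifs. The TATA box was read as TATAAA, the CCAAT box by its name, the motif of KLF factors as CACCC, the E-box of SREBP1 and others as CACGTG, the motif of EBF factors as CCCNNGGG, and that of C/EBP factors as TTGCNNCAA. The DR1 element, which PPARγ reads together with RXRα, was taken as 2 copies of AGGTCA that are 1 base apart on the same strand. Capitals mark any of these letters on either strand, apart from those of KLF factors, which occur in 52.0% of windows and were left unmarked. The windows lie on the plus strand at chr7:35119043-35119292 for Cebpa, chr11:44617850-44618099 for the upstream start of Ebf1 and chr6:115421816-115422065 for the most downstream start of Pparg, and they read from 5′ to 3′ as follows.
Cebpa: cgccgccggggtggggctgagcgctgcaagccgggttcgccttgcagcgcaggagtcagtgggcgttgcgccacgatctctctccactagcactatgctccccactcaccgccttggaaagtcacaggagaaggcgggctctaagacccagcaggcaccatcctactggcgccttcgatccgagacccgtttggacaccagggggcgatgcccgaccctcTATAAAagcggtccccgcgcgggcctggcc
Ebf1: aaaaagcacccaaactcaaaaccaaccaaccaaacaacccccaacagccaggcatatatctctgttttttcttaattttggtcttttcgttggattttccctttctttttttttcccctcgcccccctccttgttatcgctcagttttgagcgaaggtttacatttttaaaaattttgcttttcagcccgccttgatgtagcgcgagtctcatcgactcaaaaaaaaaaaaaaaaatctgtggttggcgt
Pparg: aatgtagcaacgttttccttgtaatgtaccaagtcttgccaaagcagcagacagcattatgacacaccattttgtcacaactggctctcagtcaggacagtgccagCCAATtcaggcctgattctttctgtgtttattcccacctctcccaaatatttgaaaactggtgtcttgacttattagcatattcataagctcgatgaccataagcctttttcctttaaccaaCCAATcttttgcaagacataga

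Cebpa held a TATA box 30 bases before its start, and Pparg held one before the middle of its 3 starts. Among 32851 windows of the same length in the table, 12.4% held a TATA box. CCAAT occurred at 22 and 144 bases before the downstream Pparg start, and also before Klf15 and Srebf1, so 3 of the 8 genes had it against 33.8% of all windows. The E-box was found before Klf4 and Klf15 (6.02% of all windows), the EBF motif before Cebpb and Srebf1 (11.8%), and the KLF motif before 7 of the 8 genes, all but Klf4. The C/EBP letters (1.74% of all windows) and the DR1 element (0.0335%) were in none of the windows of these genes. A gene with several starts was counted once if any of its windows held the letters. The shares of all windows are by window, so counts of genes and these shares are not directly comparable. The printed window of Ebf1 held no marked motif, and that of Cebpa held the TATA box as its only marked motif. No marked letters overlapped in the windows printed. A match describes the sequence alone, and no binding was measured here.

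Total counts were between 3142695 and 11073098 per sample, and values are given as CPM, the count of a gene for every 1000000 counts of its library, after scaling by TMM factors that ran from 0.642 to 1.23. A count of 3 in a single sample corresponds to between 0.220 and 1.49 CPM, which covers counting error only, and each of the 10 genes lay above this in every sample. Scrambled control replicate 2 had the fewest counts, and genes derived from ribosomal RNA took 43.0% of them, against 8.12% to 17.8% in the other samples. Rbms1 itself had 113, 102 and 99.6 CPM in the controls and 49.2, 61.4 and 84.0 CPM in the knockdown samples. All knockdown samples lay below all controls, but the change did not pass the threshold (log2 fold change -0.69, standard error 0.20, edgeR adjusted p = 0.185). Markers of white adipocytes summed to between 21402 and 24686 CPM in the controls, and to 20845, 11612.5 and 13680 CPM in knockdown replicates 1, 2 and 3. Lpl, on chromosome 8, alone gave 11958 to 14512 CPM of the control sums and 10210, 5350 and 5595 CPM of those after knockdown, and its log2 fold change went from -0.87 to -0.48 once chromosome medians were removed (edgeR adjusted p = 0.446 and 0.767). Without Lpl the sums were 9127 to 10731 CPM in the controls and 10635, 6263 and 8085 CPM in knockdown replicates 1, 2 and 3. The fitted change was below 0 for 8 of the 9 adipocyte markers tested. Among these, Adipoq (log2 fold change -0.24) lay within the controls in knockdown replicates 1 and 3 (2493 and 2296 CPM). The marker above 0 was Cd36, with 613 to 788 CPM in the controls and 900 to 1299 CPM after knockdown (log2 fold change 0.72). None of the 10 adipocyte markers was at 0 in all samples, although the cell type label of the samples is fibroblast. Lep was near the floor, at 0.160 to 1.61 CPM, and was not tested. The 10 preadipocyte and fibroblast markers, of which Dpp4 was at 0, summed to 8244.5 to 10168 CPM in the controls and to 5713, 10949 and 9954 CPM in knockdown replicates 1, 2 and 3. Most of each sum came from Col1a1, Col3a1 and Fn1. Of the 8 tested, 5 had a fitted change below 0. Pdgfra had 204 to 258 CPM in the controls and 83.2, 143 and 159 CPM after knockdown. Fn1 had 2198 to 3090 CPM in the controls and 2508, 4230 and 4054 CPM after knockdown. Of 9 adipocyte markers tested 1 was called (Retn, on chromosome 8, with an edgeR adjusted p of 0.219 once chromosome medians were removed), and of 8 fibroblast markers tested 0 were, where 1.22% of all tested genes were called. The 6 brown or beige markers, with Ucp1 at 0, summed to 9.14 to 23.8 CPM in the controls and 1.10 to 10.2 CPM in the knockdown samples. Without Cox7a1, the most abundant of them, the sums were 0.641 to 2.48 CPM in the controls. They were 6.18, 1.52 and 0.220 CPM in knockdown replicates 1, 2 and 3. The 6 macrophage and leukocyte markers (Adgre1 and Ptprc at 0) summed to 1.60 to 2.48 and 2.42 to 3.39 CPM, and the 4 endothelial markers (Kdr at 0) to 0.172 to 1.99 and 0.514 to 1.44 CPM. Of 4 myogenic markers only Des was detected, at 23.9 to 29.2 and 19.4 to 33.4 CPM.

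**Figure D1:**
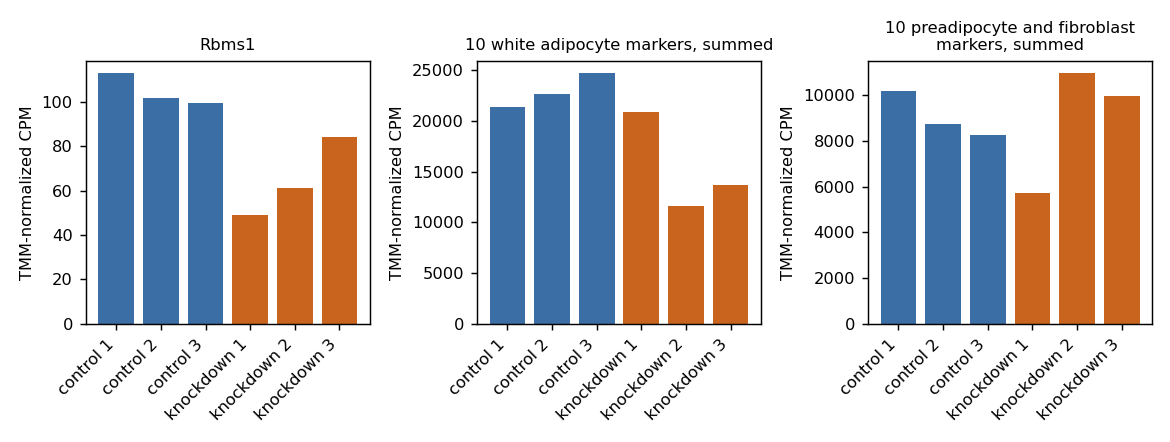
TMM-normalized CPM of Rbms1, of 10 white adipocyte markers summed and of 10 preadipocyte and fibroblast markers summed, with 1 bar for each of the 3 scrambled control samples (blue) and the 3 RBMS1 knockdown samples (orange). Knockdown replicate 1 has the lowest Rbms1 (49.2 CPM), an adipocyte sum of 20845 CPM near the controls and the lowest fibroblast sum (5713 CPM).

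None of the 10 transcription factors passed the threshold between RBMS1 knockdown and scrambled control adipocytes, which was set at an adjusted p of 0.1 in edgeR, while 1.22% of 11440 tested genes passed it. DESeq2, limma-voom and edgeR without a filter on low counts also called 0 of the 10, and called 3.2%, 1.01% and 1.38% of the genes they tested. All 10 genes passed the filter. The fitted change was below 0 for 8 of them, against 49.6% of all tested genes, and above 0 for Klf4 and Rxra (scaled by library sizes alone, which raised the median of all genes by 0.37, Pparg and Klf15 were above 0 too, and without knockdown replicate 3 Klf15 was above and Rxra below 0), with a median log2 fold change of -0.38 over the 10 genes and 0.0044 over all tested genes. An unadjusted p under 0.05 was found for 4 of them (Cebpa, Ebf1, Srebf1 and Cebpd), against 12.4% of all tested genes. The groups did not overlap in 2 of them (Cebpa and Ebf1, both lower), against 18.5% of all tested genes in either direction and 9.55% lower. Their adjusted p ranged from 0.298 for Ebf1 to 0.894 for Rxra (edgeR). The 95% interval reached past a 1.5-fold change for 9 of the 10 genes, all but Rxra, and for 8665 of the 11440 tested genes. Changes of that size therefore lie within the error of these values. In RNA from a whole culture, fewer fat cells and less of a transcript per fat cell cannot be told apart.

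**Figure D2:**
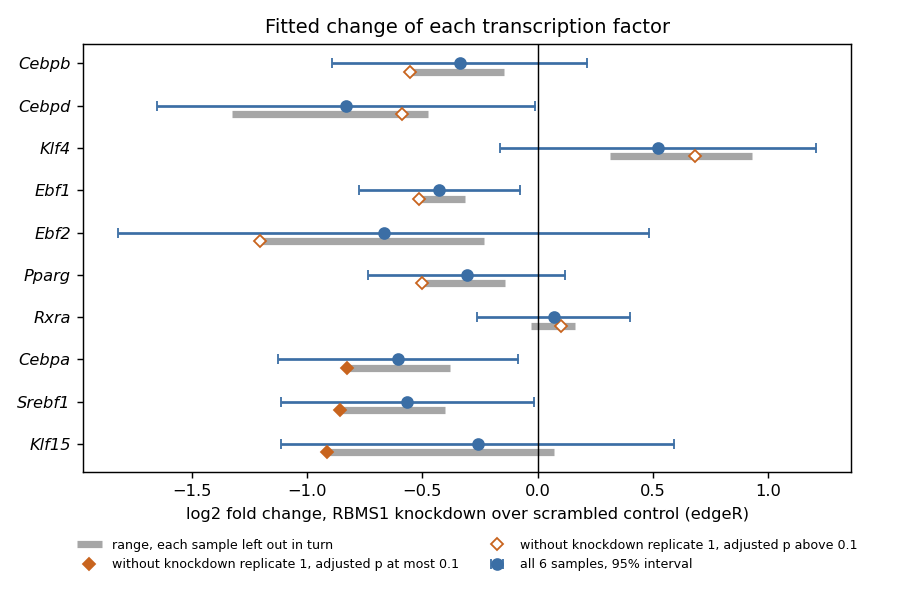
Fitted log2 fold change of the 10 transcription factors, RBMS1 knockdown over scrambled control, with the 95% interval from all 6 samples (blue), the range with each sample left out in turn (grey) and the value without knockdown replicate 1 (orange, filled where called). Cebpa, Srebf1 and Klf15 are the 3 filled symbols, at -0.83, -0.86 and -0.91.

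The early factors overlapped between the groups, and positions are given in GRCm38. Cebpb (ENSMUSG00000056501, chromosome 2 from 167688915 to 167690418), which encodes the C/EBPβ protein that starts the cascade, had 176, 102 and 148 CPM in the control samples and 145, 83.6 and 108 CPM in the knockdown samples. The groups overlapped, because control replicate 2 was lower than knockdown replicates 1 and 3. The log2 fold change was -0.34 with a standard error of 0.25 (edgeR adjusted p = 0.630), with a 95% interval from -0.89 to 0.22. It was -0.56 without knockdown replicate 1 and -0.15 without control replicate 1. Cebpd (ENSMUSG00000071637, chromosome 16 from 15887286 to 15891031) encodes its partner C/EBPδ and had 55.9, 30.3 and 31.5 CPM in the controls against 14.2, 35.4 and 16.8 CPM after knockdown. Knockdown replicates 1 and 3 lay below all controls, and knockdown replicate 2 lay above control replicates 2 and 3. This gave a log2 fold change of -0.83 (standard error 0.36, edgeR adjusted p = 0.393), with an interval from -1.65 to -0.01, and values of -1.33 without knockdown replicate 2 and -0.48 without control replicate 1. Opposite-strand exons overlap 312 bases of the exons of Cebpb (Tmem189, 39.9 to 81.2 CPM) and 562 bases of those of Cebpd (Spidr, 15.9 to 26.3 CPM). The libraries were stranded, but how strand was set in the counting is not given in the sources used here.

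Klf4 (ENSMUSG00000003032, chromosome 4 from 55527143 to 55532466), a zinc finger factor that activates Cebpb, was the one early factor with a higher mean after knockdown. Its levels were 24.5, 11.9 and 13.4 CPM in the controls and 18.7, 31.2 and 22.5 CPM in the knockdown samples. Control replicate 1 exceeded knockdown replicates 1 and 3, so the groups overlapped. The log2 fold change was 0.52 (standard error 0.30, edgeR adjusted p = 0.528), between -0.16 and 1.21 at 95%. Leaving out control replicate 1 moved it to 0.93, and leaving out knockdown replicate 2 to 0.31.

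Pparg (ENSMUSG00000000440, chromosome 6 from 115360951 to 115490399) encodes the nuclear receptor that is required for fat cell formation. It had 243, 270 and 269 CPM in the controls and 265, 164 and 203 CPM in the knockdown samples. Knockdown replicate 1 lay within the range of the controls and the other two lay below it. The mean went from 261 ± 15.7 CPM to 211 ± 51.2 CPM (SD, n = 3 each), a log2 fold change of -0.31 (standard error 0.19, edgeR adjusted p = 0.554) with an interval from -0.73 to 0.12. That value was -0.50 without knockdown replicate 1 and -0.14 without knockdown replicate 2. The deposited values are sums per gene, so transcripts of the PPARγ1 and PPARγ2 isoforms were not separated. Rxra (ENSMUSG00000015846, chromosome 2 from 27676440 to 27762957), the partner of PPARγ on DNA, had the smallest standard error of the 10 genes. It had 169, 174 and 175 CPM in the controls and 176, 161 and 206 CPM in the knockdown samples, with knockdown replicate 2 below and knockdown replicates 1 and 3 above all controls. Its log2 fold change of 0.07 (standard error 0.15, edgeR adjusted p = 0.894) had an interval from -0.26 to 0.40, and it turned to -0.03 without knockdown replicate 3, against 0.16 without knockdown replicate 2.

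Cebpa (ENSMUSG00000034957, chromosome 7 from 35119293 to 35121928) encodes C/EBPα, which together with PPARγ maintains the differentiated state and is required for insulin-sensitive fat cells. Its levels were 352, 263 and 308 CPM in the controls and 261, 138 and 206 CPM in the knockdown samples. Every knockdown sample lay below every control, although knockdown replicate 1 and control replicate 2 were almost equal. The mean went from 307 ± 44.7 CPM to 202 ± 61.5 CPM (SD, n = 3 each), and the log2 fold change was -0.61 (standard error 0.23, unadjusted p = 0.0266 and adjusted p = 0.319 by edgeR) with an interval from -1.13 to -0.09. The DESeq2 adjusted p was 0.269. Over the 16 other settings tried, the log2 fold change of Cebpa lay between -0.83 and -0.26 and was below 0 each time, with -0.83 without knockdown replicate 1 and -0.38 without knockdown replicate 2.

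Srebf1 (ENSMUSG00000020538, chromosome 11 from 60199089 to 60222581) encodes SREBP1, the activator of fatty acid synthesis genes. Its values were 158, 143 and 104 CPM in the controls and 126, 71.1 and 77.2 CPM in the knockdown samples. Knockdown replicates 2 and 3 lay below all controls, and knockdown replicate 1 lay between control replicates 2 and 3. The log2 fold change was -0.57 (standard error 0.24, edgeR adjusted p = 0.388), with an interval from -1.11 to -0.02. For Srebf1 it was -0.86 without knockdown replicate 1 and -0.40 without knockdown replicate 2. The SREBP1a and SREBP1c transcripts were not separated in the gene counts. Klf15 (ENSMUSG00000030087, chromosome 6 from 90462576 to 90475238), a glucocorticoid-responsive factor that promotes Pparg expression, had 53.4, 43.7 and 52.1 CPM in the controls and 72.3, 31.8 and 20.9 CPM after knockdown. The knockdown samples lay on both sides of the controls, and their SD of 27.1 CPM compares with 5.28 CPM in the controls. The log2 fold change was -0.26 (standard error 0.38, edgeR adjusted p = 0.833), and it changed sign without knockdown replicate 3, to 0.07, against -0.91 without knockdown replicate 1.

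Ebf1 (ENSMUSG00000057098, chromosome 11 from 44617317 to 45008091), which activates Pparg and Cebpa in the adipocyte lineage, had 172, 175 and 156 CPM in the controls and 141, 128 and 106 CPM in the knockdown samples. All knockdown samples lay below all controls. The log2 fold change was -0.43, with a standard error of 0.16 and an interval from -0.78 to -0.08, and its adjusted p of 0.298 was the lowest of the 10 genes (edgeR). With each sample left out in turn, it stayed between -0.51 and -0.32. Ebf2 (ENSMUSG00000022053, chromosome 14 from 67233292 to 67430918), known for its part in brown fat identity, was the least abundant of the 10 genes, with 8.98, 19.9 and 14.1 CPM in the controls and 14.5, 9.35 and 2.94 CPM in the knockdown samples. Knockdown replicate 3, with 40 counts, lay below all other samples, and the groups overlapped. The log2 fold change was -0.67 (standard error 0.51, edgeR adjusted p = 0.651), between -1.82 and 0.48 at 95%. Without knockdown replicate 3 it was -0.23, and without knockdown replicate 1 it was -1.20. Ebf1 and Ebf2 are related in sequence, and whether reads were shared between them was not tested.

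**Figure D3:**
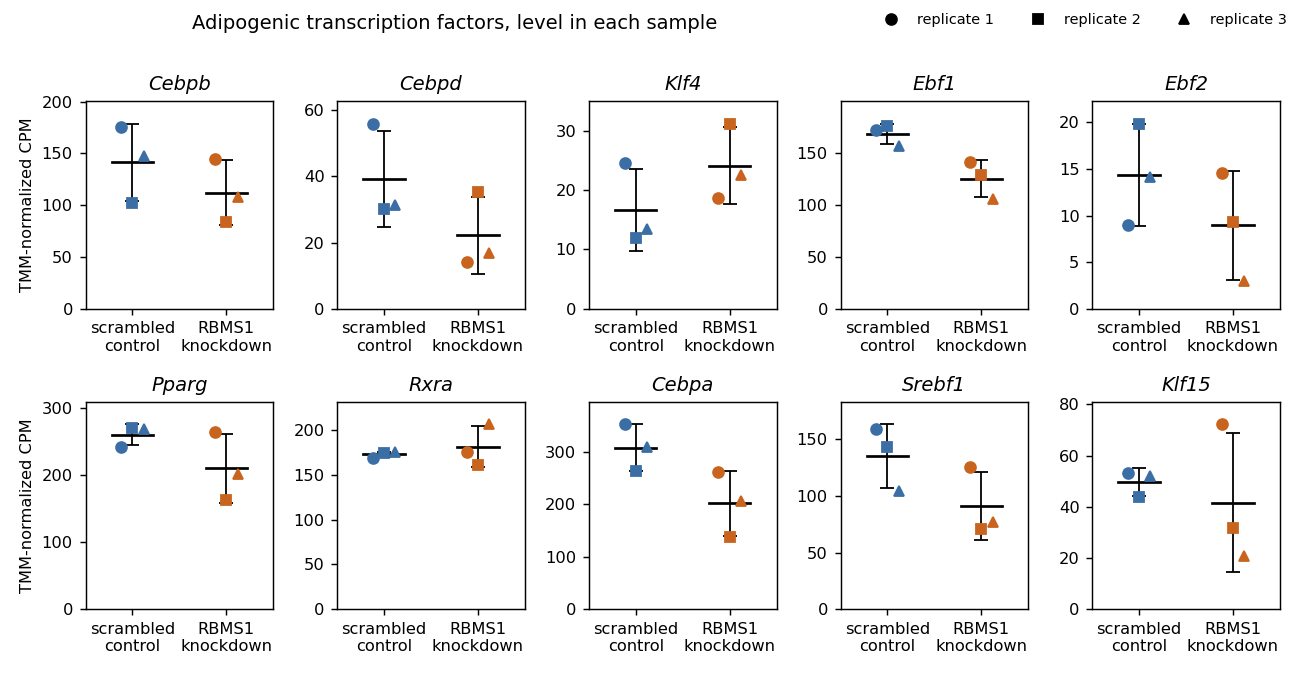
TMM-normalized CPM of each of the 10 transcription factors in the 3 scrambled control samples (blue) and the 3 RBMS1 knockdown samples (orange), with the mean and SD as bars and the replicate number given by the symbol. Cebpa and Ebf1 are the 2 genes without overlap, and knockdown replicate 1 (circle) is the highest knockdown sample for 7 of the 10.

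The knockdown samples did not behave alike. Knockdown replicate 1 was the highest of the 3 knockdown samples for Pparg, Cebpa, Cebpb, Klf15, Srebf1, Ebf1 and Ebf2, 7 of the 10 genes, while this held for 37.3% of all tested genes. It lay below all controls for 3 of the 10 genes, and knockdown replicates 2 and 3 did so for 7 each. Over all tested genes these shares were 29.6%, 28.4% and 28.8%. Knockdown replicate 1 was also the sample with the lowest Rbms1 (49.2 CPM) and, of the knockdown samples, the one whose adipocyte marker sum was nearest to the controls, with Lpl or without it. The part of adipocyte content in these levels was not tested.

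Without knockdown replicate 1, 3 of the 10 genes passed an adjusted p of 0.1 in the edgeR fit, where 5.94% of 11724 tested genes did. These were Srebf1 (log2 fold change -0.86, standard error 0.19, adjusted p = 0.0462), Klf15 (-0.91, standard error 0.22, adjusted p = 0.0547) and Cebpa (-0.83, standard error 0.20, adjusted p = 0.0609), and all were lower. Pparg and Ebf1 had log2 fold changes of -0.50 and -0.51 in that fit (edgeR adjusted p = 0.127 and 0.112). Without any other single sample, none of the 10 passed. Leaving out a sample because of its levels would select samples by outcome, so the result from all 6 samples stands as the main one.

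**Figure D4:**
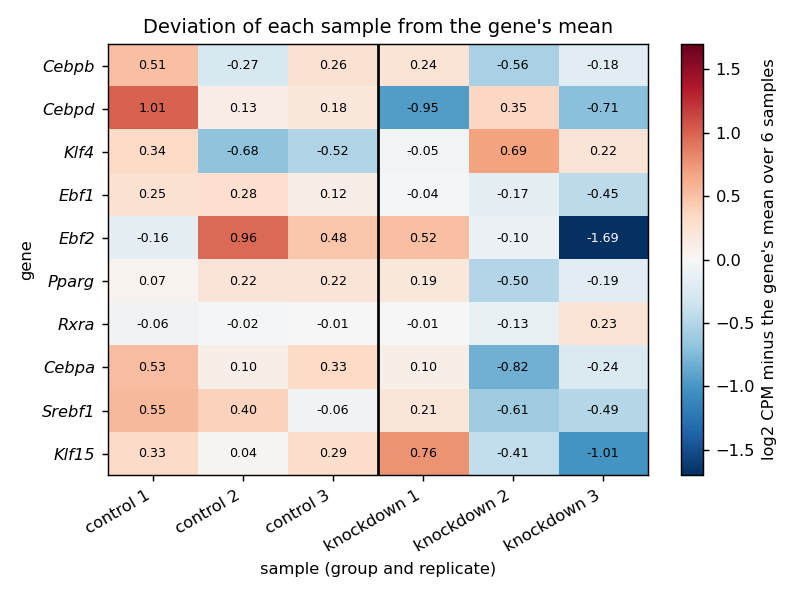
Deviation of each sample from the gene's mean over the 6 samples in log2 CPM, for 10 transcription factors (rows) in 3 scrambled control and 3 RBMS1 knockdown samples (columns), red for above and blue for below the mean. Knockdown replicate 1 is above the mean for Klf15 (0.76) and Srebf1 (0.21), where knockdown replicates 2 and 3 are below it.

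Levels were compared between genes per kilobase of annotated exon, since long transcripts collect more reads. On this scale the controls held Cebpa at 117 ± 16.9, Cebpb at 94.2 ± 24.8 and Pparg at 88.4 ± 5.30 CPM per kb (SD, n = 3 each), and neighbours in this order overlapped between samples. With the longest transcript as the length, Pparg (123 CPM per kb) stood above Cebpa (117 CPM per kb), and Ebf1 (28.1 CPM per kb) above Klf15. Per exon length, Rxra followed at 31.6 ± 0.570 CPM per kb, with no overlap with its neighbours, then Srebf1 (24.0 ± 4.96), Klf15 (17.8 ± 1.89) and Ebf1 (17.2 ± 1.03), which overlapped in turn. Cebpd (10.5 ± 3.87), Klf4 (5.45 ± 2.26) and Ebf2 (2.07 ± 0.785 CPM per kb) were the lowest and did not overlap with each other, although Cebpd and Klf4 nearly met. By the longest transcript Srebf1 (24.2 to 36.8 CPM per kb) overlapped with Rxra (34.4 to 35.6 CPM per kb), and Cebpd (from 8.08 CPM per kb) met Klf4 (up to 8.10 CPM per kb). In the knockdown samples Cebpa, Cebpb and Pparg were closer together, at 76.6 ± 23.3, 74.7 ± 20.6 and 71.3 ± 17.3 CPM per kb.

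Ratios of counts within a library do not depend on how libraries are scaled to each other. The ratio of Cebpb to Cebpa was 0.499, 0.388 and 0.479 in the controls and 0.555, 0.604 and 0.525 in the knockdown samples. It was higher in every knockdown sample than in every control, by 0.31 on the log2 scale (two-sided exact permutation p = 0.1, the smallest that 3 samples against 3 allow, and 0.4 adjusted over 4 ratios). The ratio of Cebpa to Pparg was 1.45, 0.971 and 1.14 in the controls and 0.984, 0.845 and 1.02 after knockdown, and the groups overlapped (exact permutation p = 0.3, adjusted 0.4). Rxra to Pparg was between 0.642 and 0.696 in the controls and in knockdown replicate 1 (0.661), but 0.984 and 1.02 in knockdown replicates 2 and 3 (exact permutation p = 0.2, adjusted 0.4). Ebf2 to Ebf1 ranged from 0.0522 to 0.113 in the controls and from 0.0278 to 0.103 after knockdown (exact permutation p = 0.6). None of the 4 ratios could reach a p of 0.05 in this design.

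Other regulators of adipogenesis and the target genes of these factors were read from the same fit. Of 35 genes listed as pro-adipogenic regulators or coactivators, whose roles can differ, 32 were tested, 23 were below 0 and the median log2 fold change was -0.22. Nfia and Zfp423 were called lower and none was called higher, while 0.909% of all tested genes were called lower and 0.315% higher. Nfia (chromosome 4), which promotes brown fat genes, had 201, 231 and 191 CPM in the controls against 141, 113 and 96.8 CPM after knockdown (log2 fold change -0.83, standard error 0.18, edgeR adjusted p = 0.0908). Zfp423, a factor that commits cells to the preadipocyte lineage, had 55.5, 67.0 and 46.1 CPM against 30.2, 27.5 and 34.7 CPM (log2 fold change -0.86, standard error 0.19, edgeR adjusted p = 0.0957). With each sample left out in turn, Nfia and Zfp423 were called only without knockdown replicate 1. Zfp423 lies on chromosome 8, and after removal of chromosome medians its log2 fold change was -0.47 (edgeR adjusted p = 0.407) and it was no longer called, while Nfia remained called at -0.89 (edgeR adjusted p = 0.0944). Neither gene was called with the replicate number as a block, with edgeR's earlier estimates or at an adjusted p under 0.05, where 0 genes of the list were called. Of 33 regulators that restrain adipogenesis, 31 were tested, 19 were below 0, the median was -0.05 and 0 were called by edgeR (2 at an unadjusted p under 0.05 and 1 by DESeq2, where 12.4% and 3.2% of all tested genes were). The smallest p in that list belonged to Klf2, a repressor of Pparg, at 21.2, 12.9 and 15.1 CPM in the controls and 1.73, 8.07 and 4.92 CPM after knockdown (log2 fold change -1.74, standard error 0.46, edgeR adjusted p = 0.152), called without knockdown replicate 1. Next came Dlk1, which encodes the preadipocyte protein Pref-1, at 361, 217 and 227 CPM against 67.7, 192 and 189 CPM (log2 fold change -0.84, edgeR adjusted p = 0.388).

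Of 30 genes listed as targets of PPARγ and C/EBPα in fat cells, 28 were tested, 24 were below 0 and the median log2 fold change was -0.35. Of these, 3 were called, all of them lower, where 0.909% of all tested genes were called lower. Slc27a1, a fatty acid transport protein gene, fell from 84.3 ± 6.97 to 39.7 ± 5.27 CPM (log2 fold change -1.09, standard error 0.16, edgeR adjusted p = 0.0333). Adrb3, the β3-adrenergic receptor gene, fell from 64.1, 62.0 and 69.7 CPM to 35.5, 24.9 and 23.6 CPM (log2 fold change -1.22, standard error 0.19, edgeR adjusted p = 0.0333), and Retn, which encodes the adipokine resistin, fell from 252 ± 54.6 to 79.0 ± 47.4 CPM (log2 fold change -1.67, standard error 0.36, edgeR adjusted p = 0.0967; SD, n = 3 throughout). All 3 lie on chromosome 8, as do Zfp423 and Klf2, and the 624 tested genes of that chromosome stood at -0.38 in the middle on the log2 scale, with 90.1% below 0. Once the median of every chromosome was taken out of each sample, 0.638% of all tested genes were called and none of the 28. The median of the list was then -0.36. Slc27a1 and Adrb3 had log2 fold changes of -0.70 and -0.83 (edgeR adjusted p = 0.154 for both), and Retn had one of -1.28 (edgeR adjusted p = 0.219). None of the 10 transcription factors lies on chromosome 8, but removing chromosome medians changed their values too. The log2 fold change of Pparg went from -0.31 to -0.48 and that of Klf15 from -0.26 to -0.43. Srebf1 went from -0.57 to -0.48 and Ebf1 from -0.43 to -0.35. The median of the 10 went from -0.38 to -0.46 and 0 were called (smallest edgeR adjusted p 0.434, for Pparg). Slc27a1 and Adrb3 kept their call without knockdown replicate 1 or 3, and Retn without knockdown replicate 1 alone. Without knockdown replicate 1, 13 of the 28 were called, where 5.94% of all tested genes were, among them Plin1, Lipe and Slc2a4. Of these 13, 6 lie on chromosome 8 (Slc27a1, Adrb3, Retn, Acsl1, Lpl and Insr), where 83 of the 624 genes were called in that fit.

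Of 19 SREBP1 target genes, 13 were below 0, the median was -0.19 and 1 was called lower, where 0.909% of all tested genes were. This was Thrsp, a lipogenic gene, at 263, 469 and 508 CPM in the controls and 173, 99.7 and 87.5 CPM after knockdown (log2 fold change -1.78, standard error 0.31, edgeR adjusted p = 0.0529). Thrsp kept its call without control replicate 1 or knockdown replicate 1 or 3. Pnpla3, a lipid droplet gene regulated by SREBP1, had 79.7, 99.3 and 72.3 CPM against 42.7, 15.7 and 9.47 CPM (log2 fold change -1.89, standard error 0.46, edgeR adjusted p = 0.130), and was called without knockdown replicate 1. Of the 19, 8 were called without knockdown replicate 1 (5.94% of all tested genes), Fasn and Acaca included. Of the 19, 6 were above 0, against 5767 of 11440 tested genes, and 0 of the 6 were called. After Thrsp and Pnpla3 the smallest p belonged to 2 of these, the fatty acid desaturase genes Fads1 and Fads2, which were picked out after their values were seen. Fads1 had 291, 252 and 273 CPM in the controls and 523, 311 and 444 CPM after knockdown, with no overlap (log2 fold change 0.65, standard error 0.20, edgeR adjusted p = 0.221). Fads2 had 185, 163 and 231 CPM against 353, 222 and 358 CPM, and the groups overlapped (log2 fold change 0.69, standard error 0.22, edgeR adjusted p = 0.226). Scd1 belongs to both target lists.

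**Figure D5:**
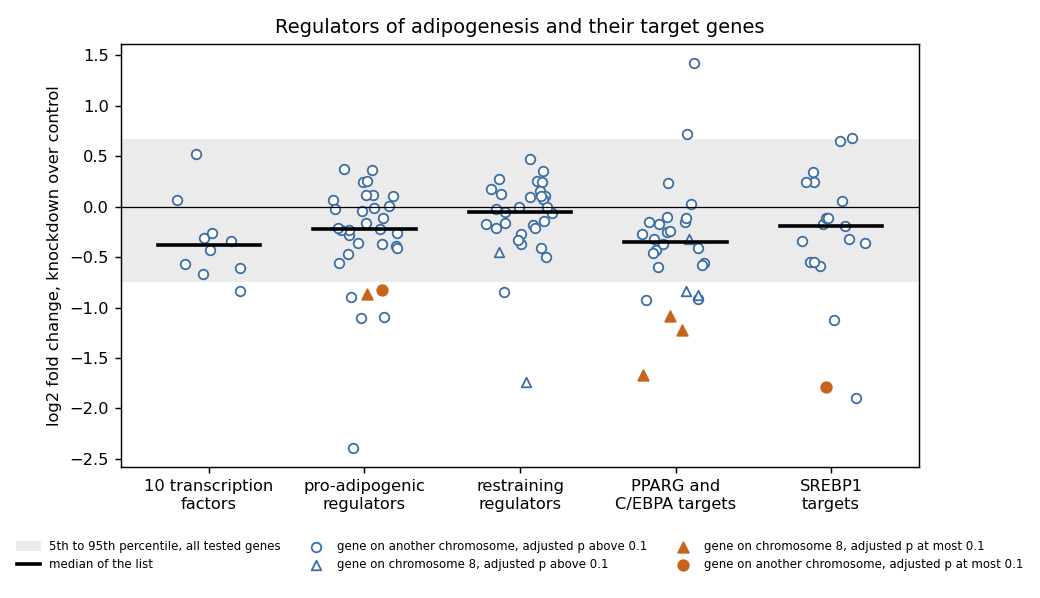
Log2 fold change, RBMS1 knockdown over scrambled control, of the 10 transcription factors and of 4 lists of adipogenic regulators and target genes, with 1 symbol per gene, triangles for chromosome 8, filled orange where called, and a line at each median; the grey band holds the central 90% of all tested genes. The 3 filled triangles among the PPARγ and C/EBPα targets are Slc27a1, Adrb3 and Retn, and no transcription factor of the first column is filled.

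The genes whose pattern over the 6 samples was most like that of Pparg and Cebpa were found by the root mean square difference in centred log2 CPM, among 8150 genes with a mean of at least 10 CPM. For Pparg these were Pxmp4 (0.0648), Gm6166 (0.0661) and Arhgef7 (0.0663), where the median gene stood at 0.347. Pxmp4, which encodes a peroxisomal membrane protein, had 127, 134 and 146 CPM in the controls and 130, 77.0 and 100.5 CPM after knockdown. For Cebpa they were Ndufb5 (0.0966), Dgat1 (0.108) and Cpq (0.1099), with a median of 0.495. Dgat1, an enzyme of triglyceride synthesis, had 288, 260 and 252 CPM in the controls and 228, 130.5 and 170 CPM after knockdown. None of these 6 genes was called, where 1.22% of all tested genes were, with log2 fold changes between -0.61 and -0.27 (edgeR adjusted p from 0.267 to 0.563). The 6 genes were picked for their match to Pparg and Cebpa, so these values follow from that choice. Among the transcription factors themselves, Ebf1 was closest to Pparg (0.214) and Cebpb was closest to Cebpa (0.200).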

How the data were processed

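The authors prepared stranded libraries from total RNA depleted of ribosomal RNA, trimmed reads with Trim Galore 0.6.7, used STAR 2.7.10a for alignment (GRCm38) and estimated counts per gene with Salmon 1.9.0. The annotation release and the summing of transcripts to genes are not given in the sources used here. The deposited values are these estimated counts, not normalized, and between 3.97% and 7.78% of the values per sample were not whole (tolerance 1e-06). After rounding to whole numbers, all 6 samples were fitted on the group alone by the quasi-likelihood method of edgeR 4.0.16 (R 4.3.3), using filterByExpr, TMM factors, estimateDisp, glmQLFit with its newer estimates and glmQLFTest, with Benjamini-Hochberg adjustment over the 11440 genes that passed the filter. The standard error is the log2 fold change divided by the root of F. Genes with adjusted p values up to 0.1 were called, as in the Results of the study.

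Positions and exon lengths came from GENCODE vM21 (GRCm38), which held 11402 of the tested genes, and promoter windows from RefSeq (GRCm38.p6). The 10 genes and the lists were chosen with earlier results of these data known. The text names the 10 genes, Rbms1, the called genes of each list (or the 2 with the smallest p) and the 3 genes most like Pparg and Cebpa. Markers, genes on the opposite strand and genes called without 1 sample were named after their values were seen. The alternatives were DESeq2 1.42.0, limma-voom (limma 3.58.1), RLE factors, library sizes alone, no filter, a filter of 1 CPM in 3 samples, a replicate block, a threshold of 0.05, and each sample left out. Library sizes without ribosomal RNA genes, edgeR's earlier estimates and removal of chromosome medians (chromosomes with at least 50 tested genes) were added after seeing the data. The fits were tested on simulated data.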

Additional observations from a re-analysis of the deposited data

How the results depend on the processing

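Total counts differed between samples, from 3142695 in control replicate 2 to 11073098 in RBMS1 knockdown replicate 3, and the smallest change that could be called was not determined. None of the 10 was called under any alternative except without RBMS1 knockdown replicate 1, where 3 were, so the range with each sample left out was 0 to 3. Of 160 refitted log2 fold changes of these genes, 153 kept their direction and stayed uncalled, 3 became called and 4 changed sign. With library sizes alone, which raised the median of all genes by 0.37 on the log2 scale, Pparg (0.080) and Klf15 (0.073) changed sign, or -0.29 and -0.30 with the shift subtracted. Without RBMS1 knockdown replicate 3, Klf15 (0.068) and Rxra (-0.030) changed sign, as did the log2 ratio of Ebf2 to Ebf1, from -0.45 to 0.097, the causes being not tested. Leaving out single samples, the log2 fold changes ranged from -0.50 to -0.14 for Pparg, -0.83 to -0.38 for Cebpa, -0.56 to -0.15 for Cebpb, -1.33 to -0.48 for Cebpd, 0.31 to 0.93 for Klf4, -0.91 to 0.068 for Klf15, -0.86 to -0.40 for Srebf1, -0.51 to -0.32 for Ebf1, -1.20 to -0.23 for Ebf2 and -0.030 to 0.16 for Rxra. For the ratios the log2 differences ranged from -0.45 to -0.16 for Cebpa to Pparg, 0.29 to 0.60 for Rxra to Pparg, 0.20 to 0.38 for Cebpb to Cebpa and -0.85 to 0.097 for Ebf2 to Ebf1.

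Of all tested genes, 140 were called, 430 by DESeq2, 268 without a filter, 73 with chromosome medians removed, 53 at an adjusted p under 0.05, and 12 to 696 with each sample left out (the fewest without control replicate 2, the most without RBMS1 knockdown replicate 1). The list of pro-adipogenic regulators and coactivators had 2 called genes, 5 by DESeq2, 1 with RLE factors, library sizes alone or chromosome medians removed (which lost Zfp423), 0 with edgeR's earlier estimates or at 0.05, and 0 to 4 with each sample left out. The restraining list had 0, and 1 by DESeq2 or without a filter, and 0 to 1 with each sample left out. The PPARγ and C/EBPα targets had 3, and 8 by DESeq2, 0 with library sizes alone or chromosome medians removed, and 0 to 13 with each sample left out. The SREBP1 targets had 1, and 5 by DESeq2, 2 by limma-voom or without a filter, 0 at 0.05, and 0 to 8 with each sample left out. In each list the highest count with a sample left out came without RBMS1 knockdown replicate 1.

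With the replicate number as a block, 39 genes were called, 0 of them in any of the 4 lists or among the 10 transcription factors. With that block the standard error went from 0.23 to 0.17 for Cebpa, 0.25 to 0.15 for Cebpb and 0.24 to 0.18 for Srebf1. It was also lower for Klf15 and Ebf1, and higher for Pparg, Klf4, Rxra, Ebf2 and Cebpd. Deviations of same-numbered samples had correlations of -0.14, 0.08 and -0.03 across genes, and 1 of the 6 samples correlated best with its own number. These values cannot tell whether same-numbered samples were handled together, which is not given in the sources used here.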

Other observations

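Relatives of the 10 transcription factors were read from the same edgeR fit by gene symbol, a choice made after the values were seen. Of 11 other Krüppel-like factor genes that were tested, 4 were below 0 and 0 were called, with 3 at an unadjusted p under 0.05 (12.4% of all tested genes). The groups did not overlap in 4 (18.5% of all tested genes), namely Klf13, Klf11, Klf2 and Klf16. Klf13 had 120, 130 and 111 CPM in the scrambled control samples and 85.2, 75.9 and 69.7 CPM in the RBMS1 knockdown samples (log2 fold change -0.65, standard error 0.15, edgeR adjusted p = 0.111). Klf11 had 8.66, 11.4 and 9.64 CPM against 18.1, 17.5 and 13.4 CPM (log2 fold change 0.74, standard error 0.23, edgeR adjusted p = 0.215). Klf16 had 14.4, 5.46 and 12.2 CPM against 16.4, 15.1 and 16.0 CPM (log2 fold change 0.52, edgeR adjusted p = 0.531), and was not among the 3.

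The closest relatives of the other factors were not called and overlapped between the groups. Srebf2, which drives cholesterol synthesis genes, had 226, 165 and 184 CPM in the controls and 221, 153 and 183 CPM after knockdown, a log2 fold change of -0.05 (standard error 0.18, edgeR adjusted p = 0.948). Ebf3 had 22.6, 21.3 and 18.6 CPM against 20.8, 22.2 and 18.6 CPM. Rxrb had a log2 fold change of -0.16 and Ppard one of -0.37 (edgeR adjusted p = 0.752 and 0.478). Cebpg had one of 0.11 (edgeR adjusted p = 0.900).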
